A study of Mus musculus with 12 samples.

Results

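The genes described here are 10 genes of iron and heme transport: the carrier *Trf* and its receptor *Tfrc*, the endosomal reductase *Steap3*, the importer *Slc11a2*, the ferritin heavy chain *Fth1*, the exporter *Slc40a1*, the ferroxidases *Cp* and *Heph*, the heme scavenger *Hpx* and the heme oxygenase *Hmox1*. They were found by the gene name given to each array probe, which matched 19 probes for 10 of the 34836 gene names on the array. They were read in mouse ES cells and in the XEN-like cells (cells resembling extraembryonic endoderm stem cells) derived from them by activation of Gata6, with 1 or no intact allele of *Sox7*.

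RNA of 4 groups was hybridised to 12 one-colour Agilent arrays, with 3 arrays a group. Heterozygous, *Sox7* (+/−), and null, *Sox7* (−/−), cells were each taken as ES cells, at day 4 without dexamethasone (Dex), and as XEN-like cells, after 4 days with Dex. Cells of all 4 groups carried Gata6GR, mouse Gata6 joined to the ligand-binding domain of the human glucocorticoid receptor, which Dex brings into the nucleus, and all were kept with LIF. The methods of the study give EB3 as the ES line in which *Sox7* was targeted, and the null cells arose from 1 heterozygous line carrying Gata6GR by high-dose puromycin selection, so clone and genotype cannot be told apart. There were no cells without the transgene, so an effect of Dex by itself and that of Gata6GR cannot be told apart, and no array was made of *Sox7* (+/+) cells.

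Iron circulates bound to transferrin, which is the product of *Trf* and enters cells through the receptor encoded by *Tfrc*. In the endosome the iron is reduced by *Steap3* and passes to the cytosol through *Slc11a2*, where it is used, stored in ferritin or exported by ferroportin, the product of *Slc40a1*, with the help of the copper oxidases encoded by *Cp* and *Heph*. Heme bound by hemopexin (*Hpx*) is taken up and opened by *Hmox1*, which releases the iron. The visceral endoderm of the early embryo is known as a tissue that makes transferrin and takes up maternal proteins, and cells commonly control *Tfrc* and ferritin through the stability and translation of their mRNA as well as through transcription, of which an array sees only the amount of mRNA.

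The probe sequences on which the results turn are given first, because the 2 probes of *Slc11a2* and the 3 probes of *Tfrc* did not give the same answer. They are those of the array, 5′ to 3′ on the strand of the mRNA, with positions on mouse build mm9. A polyadenylation signal (AATAAA, in capitals) is carried by 3 of the 19 member probes, or 15.8%, against 10.1% of all 55681 probes on the same strand and 3.74% on the other strand, where 1 member probe has it. For these 3 probes the last 30 bases are shown, and the other probes are shown whole.
Trf, brightest probe, chr9:103111207-103111236, minus strand: gagcacaaAATAAAaacgactgctgacttt
Trf, other probe, chr9:103112826-103112885, minus strand: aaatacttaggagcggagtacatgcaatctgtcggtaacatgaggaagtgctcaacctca
Slc40a1, its 1 probe, chr1:45965255-45965284, minus strand: cctttcaatatccctgagaagAATAAAgaa
Slc11a2, brightest probe, chr15:100218333-100218362, minus strand: ttgttatAATAAAgttcatgcttaatagct
Slc11a2, other probe, chr15:100240516-100240575, minus strand: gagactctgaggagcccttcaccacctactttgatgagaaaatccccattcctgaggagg
Tfrc, dimmest of its 3 probes, chr16:32624877-32625093, plus strand: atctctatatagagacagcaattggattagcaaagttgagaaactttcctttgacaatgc
The dimmest *Tfrc* probe has 60 bases but covers 217 bases of the genome, so it lies across a splice junction. The other *Tfrc* probes lie at chr16:32632255-32632314, which is the brightest, and at chr16:32620470-32620529. Exons and UTRs of mm9 were not used here.

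Signals are given as normalised signal, with the 75th percentile of each array set at 100, and probes of different genes cannot be compared by it. A gene was called changed at a Benjamini-Hochberg adjusted p under 0.05 in limma's fit of all 25938 tested probes together with a change over 2-fold. A probe is said to be detected on an array where the scanner software called it well above background. Where a gene has several tested probes, its value is that of the brightest. In all, 13 of the 19 probes and 7 of the 10 genes were tested, and *Cp*, *Heph* and *Hpx* were not, being detected on all 3 arrays of no group. The labels number the replicates but do not say whether they were separate cultures, and for the heterozygous ES arrays the source label repeats 1 replicate number, so the p-values measure only the spread between these arrays. *Sox7* itself gave signals from 219 to 230 in *Sox7* (+/−) ES cells and from 491 to 690 in *Sox7* (+/−) XEN-like cells, and was not detected on any array of *Sox7* (−/−) cells. The endoderm factors *Gata4*, *Sox17* and *Foxa2* rose with Dex in both genotypes, by 1.54, 2.46 and 2.31 on the log2 scale in *Sox7* (+/−) cells and by 1.73, 2.40 and 2.78 in *Sox7* (−/−) cells. The arrays lay on 2 slides, with all 3 *Sox7* (−/−) ES arrays and 1 *Sox7* (−/−) XEN-like array on slide 1 and the other 8 arrays on slide 2, so in ES cells slide and genotype cannot be told apart. The difference between the Dex responses takes in that ES comparison, and the Dex response of *Sox7* (−/−) cells also lies partly across the slides. Only the *Sox7* (−/−) XEN-like group lay on both slides, so a slide block rests on its 1 array on slide 1.

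Upon Dex treatment the transferrin mRNA fell 8.32-fold and 9.11-fold in *Sox7* (+/−) and *Sox7* (−/−) cells, and by less when the background was corrected in another way. *Slc40a1*, the iron exporter, fell in *Sox7* (+/−) cells and did not fall in *Sox7* (−/−) cells, a difference that passed its own test, while the receptor *Tfrc* fell in both. The ferritin gene *Fth1* and the heme oxygenase gene *Hmox1* rose by under 2-fold in both, but passed the test in neither genotype when the arrays were scaled by spike-in controls or on the deposited table. In *Sox7* (+/−) cells, *Trf* and *Slc40a1* were the 2 members called lower and 0 were called higher, against 14.0% of all tested probes called lower and 10.9% higher. In *Sox7* (−/−) cells, *Trf* and *Tfrc* were called lower and 0 were called higher, where 14.3% of all tested probes were called lower and 14.5% higher. The median difference of the 7 members was 0.12 on the log2 scale in *Sox7* (+/−) cells and 0.31 in *Sox7* (−/−) cells, beside 0.15 and 0.07 over all tested probes. At any size of change, 6 of 7 members passed the adjusted p in *Sox7* (+/−) cells and 7 of 7 in *Sox7* (−/−) cells, where 62.6% and 65.3% of all tested probes did. Counts this small over 7 members are not read as a property of the group.

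**Figure D1:**
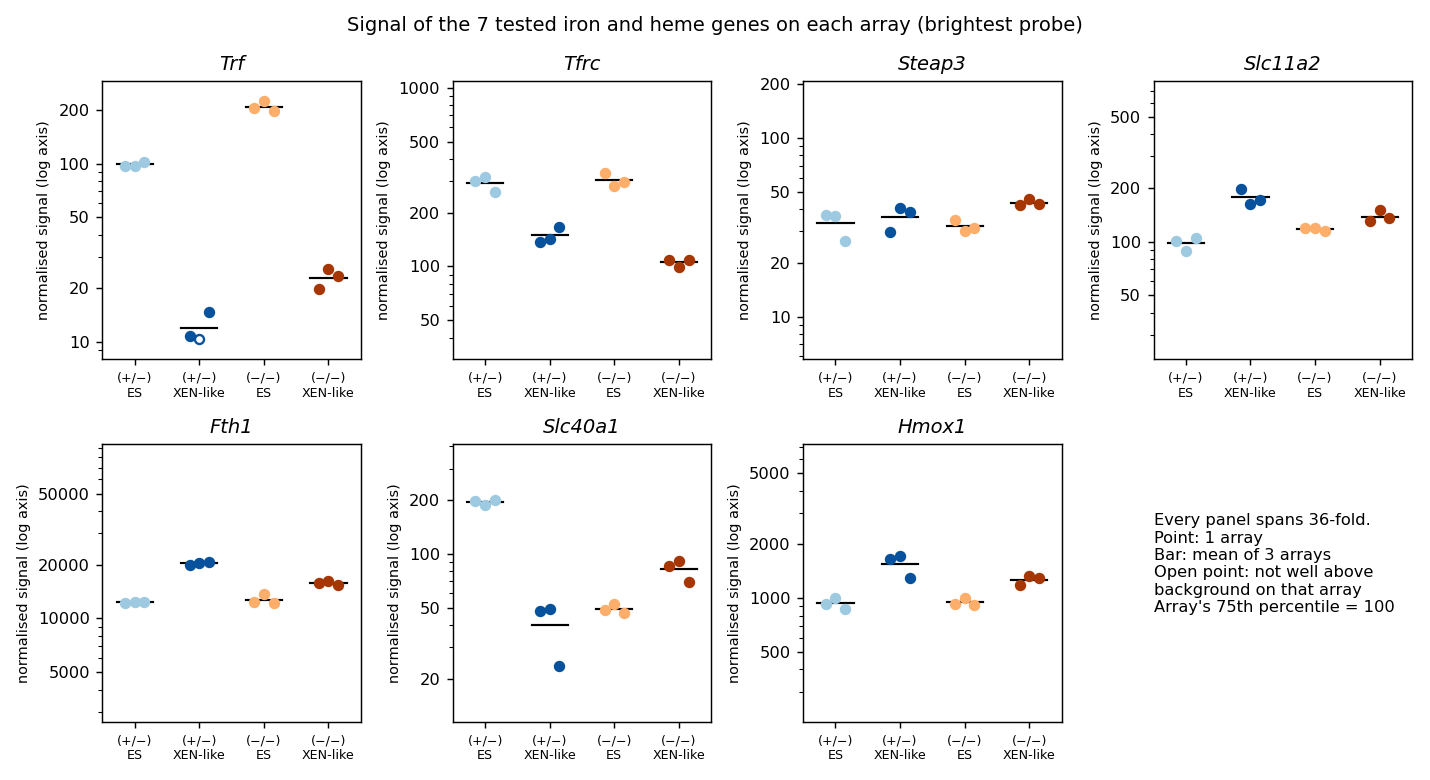
Normalised signal of the 7 tested genes on each array (log axis, array's 75th percentile = 100, every panel spanning the same 36-fold range), for *Sox7* (+/−) and *Sox7* (−/−) ES and XEN-like cells; points are arrays, bars are means of 3 arrays and the open point was not detected. *Trf* was low in both XEN-like groups, whereas *Slc40a1* was highest in *Sox7* (+/−) ES cells, between 189 and 201, and at most 91.5 on every other array.

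*Trf* encodes the iron carrier of the plasma. Its signal was 97.6, 97.4 and 102 on the 3 arrays of *Sox7* (+/−) ES cells and 10.9, 10.4 and 14.9 in *Sox7* (+/−) XEN-like cells, with 2 of the 3 arrays detected. The dimmest detected signal of any probe on those XEN-like arrays was 9.55, 11.2 and 12.3. Values that use this group therefore rest on signals near background. In the null cells *Trf* gave 204, 224 and 198 before Dex and 20.0, 25.6 and 23.4 after. All 6 ES arrays lay above all 6 XEN-like arrays, and within each state the null arrays lay above the heterozygous arrays without overlap. The fall with Dex was 8.32-fold in *Sox7* (+/−) cells (log2 −3.06, SE 0.14, adjusted p 2.58e-08 in limma) and 9.11-fold in *Sox7* (−/−) cells (log2 −3.19, adjusted p 1.44e-08). With normexp background correction the falls were smaller, at −1.69 and −2.46 on the log2 scale, and on the deposited table, which is neither background-subtracted nor scaled, they were −2.26 and −2.59. The difference between these responses was −0.13 on the log2 scale, with a 95% interval from −0.56 to 0.30 and an adjusted p of 0.655. With normexp it was −0.77 (adjusted p 0.000198), outside that interval, and with spike-in scaling 0.27, so whether the 2 falls differed depends on the processing. Among ES cells *Trf* was 2.11-fold higher in the null (log2 1.07, adjusted p 0.000199) and 1.92-fold higher in XEN-like cells (log2 0.94, adjusted p 0.000684), the first just above and the second just below the 2-fold threshold. In ES cells 14 of 16 alternatives kept the call, and in XEN-like cells 6 of 17 gave one, while with normexp the difference there was 0.22. Both probes of *Trf* fell in both genotypes. On the other probe, *Trf* was detected on no *Sox7* (+/−) XEN-like array, so the fall there was at least 3.17-fold. In *Sox7* (−/−) XEN-like cells that probe gave 11.2, 5.30 and 15.3 with 1 of the 3 arrays detected, so no fold is given (adjusted p 6.27e-05). In ES cells, where that probe was detected on all arrays, its genotype difference was 0.89 (adjusted p 0.0652), not called. In XEN-like cells it was 1.38 (adjusted p 0.0147), called higher without *Sox7*, but the groups overlapped and most of those arrays were not detected.

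*Trf* fell with Dex as most of the pluripotency markers did, while most parietal endoderm markers rose. The visceral endoderm markers were mixed in *Sox7* (+/−) cells and mostly rose in *Sox7* (−/−) cells. Of 9 pluripotency genes tested, 6 were called lower and 1, *Klf4*, higher with Dex in *Sox7* (+/−) cells, and 8 lower in *Sox7* (−/−) cells, and their summed signal fell from between 29000 and 30090 to between 7280 and 7939 in *Sox7* (+/−) cells. Of 12 visceral endoderm markers tested, 4 were called higher and 4 lower in *Sox7* (+/−) cells and 9 higher and 1 lower in *Sox7* (−/−) cells, and of 11 parietal endoderm markers 9 and 8 were called higher and 0 lower. Of all tested probes, 10.9% were called higher and 14.0% lower with Dex in *Sox7* (+/−) cells, and 14.5% and 14.3% in *Sox7* (−/−) cells. In ES cells 3 of the 9 pluripotency genes were called higher in *Sox7* (−/−) cells, beside 1.94% of all tested probes, with sums from 58130 to 61370. Over the 12 arrays, the named genes whose log2 signal was closest to that of *Trf* were *Adap1*, with a Pearson r of 0.997, *Tex40*, with 0.996, and *Fkbp5*, with 0.996, given as a description over arrays that fall into 4 groups. *Fkbp5*, known as a target of the glucocorticoid receptor, had a mean of 771 ± 34.8 (SD, n = 3) in *Sox7* (+/−) ES cells and 170 ± 37.1 in *Sox7* (+/−) XEN-like cells. The genes of its list went both ways. Of 7 glucocorticoid response genes tested, 1 was called higher and 3 lower with Dex in *Sox7* (+/−) cells. In *Sox7* (−/−) cells 1 was called higher and 2 lower. Whether the cell state moves *Trf* was not tested.

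*Tfrc* encodes the receptor that carries transferrin-bound iron into the cell. Its brightest probe gave 302, 316 and 260 in *Sox7* (+/−) ES cells and 137, 143 and 167 in *Sox7* (+/−) XEN-like cells. It gave 332, 283 and 297 in *Sox7* (−/−) ES cells and 109, 99.5 and 108 in *Sox7* (−/−) XEN-like cells. The XEN-like arrays lay below the ES arrays in both genotypes, and the null XEN-like arrays lay below the heterozygous ones. The fall was 1.97-fold in *Sox7* (+/−) cells (log2 −0.97, SE 0.11, adjusted p 1.9e-05), just under the threshold and past it in 6 of 17 alternatives, and 2.88-fold in *Sox7* (−/−) cells (log2 −1.52, adjusted p 5.02e-07). The difference between the responses was −0.55 on the log2 scale (adjusted p 0.0214, under 2-fold), and the other probes gave −0.47 and −0.55 with adjusted p 0.112 and 0.243. On the brightest it was −0.15 with spike-in scaling (adjusted p 0.578) and −0.10 on the deposited table (adjusted p 0.846). In XEN-like cells *Tfrc* was lower without *Sox7* on every probe, by −0.49 on the brightest (adjusted p 0.00579), and by −1.11 and −1.04 on the others, which were both called. The −1.04 is that of the dimmest probe, which was detected on 2 of the 3 arrays in each XEN-like group, so it rests on signals near background. On the deposited table the value of the brightest was −0.053 (adjusted p 0.827) and with spike-in scaling −0.25 (adjusted p 0.135). In ES cells the 3 probes parted, with a difference of 0.06 on the brightest (adjusted p 0.695), −0.63 on the second (adjusted p 0.00532) and −0.49 on the dimmest (adjusted p 0.114). The brightest is spotted 10 times on the array, with 2 spot values left out as flagged, and the other probes once each.

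*Steap3* encodes the ferrireductase of the endosome. Its signal was 37.2, 36.4 and 26.6 in *Sox7* (+/−) ES cells, 29.8, 40.3 and 38.3 in *Sox7* (+/−) XEN-like cells, 34.8, 30.02 and 31.5 in *Sox7* (−/−) ES cells and 42.1, 45.4 and 42.8 in *Sox7* (−/−) XEN-like cells. The groups overlapped in *Sox7* (+/−) cells, where the difference was 0.12 on the log2 scale (adjusted p 0.503), and this difference was −0.36 when the arrays were scaled by spike-in controls. In *Sox7* (−/−) cells it was 0.44 (adjusted p 0.0233), under 2-fold. The second probe gave −0.40 in *Sox7* (+/−) cells (adjusted p 0.176) and 0.13 in *Sox7* (−/−) cells (adjusted p 0.651), so no direction is given for *Steap3* with Dex.

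*Slc11a2* encodes DMT1, which moves ferrous iron across membranes, and its transcripts are known to have alternative ends. Its brightest probe, at the polyadenylation signal, gave 100, 88.5 and 104 in *Sox7* (+/−) ES cells and 197, 162 and 170 in *Sox7* (+/−) XEN-like cells. It gave 118, 119 and 114 in *Sox7* (−/−) ES cells and 130, 150 and 135 in *Sox7* (−/−) XEN-like cells. XEN-like arrays lay above ES arrays in both genotypes. The rise was 1.81-fold in *Sox7* (+/−) cells (log2 0.85, SE 0.10, adjusted p 2.49e-05) and 1.18-fold in *Sox7* (−/−) cells (log2 0.24, adjusted p 0.0498), and the difference between them was −0.62 (adjusted p 0.00806). That difference was −0.21 with spike-in scaling (adjusted p 0.556) and −0.22 on the deposited table (adjusted p 0.591), and the rise in *Sox7* (+/−) cells was 0.37 (adjusted p 0.0778) and 0.39 (adjusted p 0.0494). The other probe, farther from the 3′ end, rose by 0.66 and 0.81 (adjusted p 0.000801 and 0.000157) with a difference of 0.15 and a 95% interval from −0.22 to 0.53 (adjusted p 0.538). In ES cells the probes went opposite ways between the genotypes, with 0.26 on the brightest (adjusted p 0.0455) and −0.48 on the other (adjusted p 0.00868). On the brightest this was 0.25 with quantile normalisation (adjusted p 0.0586) and 0.11 with spike-in scaling (adjusted p 0.66), so it did not pass the test there. The other probe read 22.6, 21.5 and 20.6 in *Sox7* (+/−) ES cells and 16.5, 14.1 and 15.7 in *Sox7* (−/−) ES cells, without overlap. In XEN-like cells both probes were lower without *Sox7*, by −0.35 (adjusted p 0.018) and −0.33 (adjusted p 0.0577), although on the deposited table the brightest gave 0.04. Which transcript ends the probes read was not tested.

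**Figure D2:**
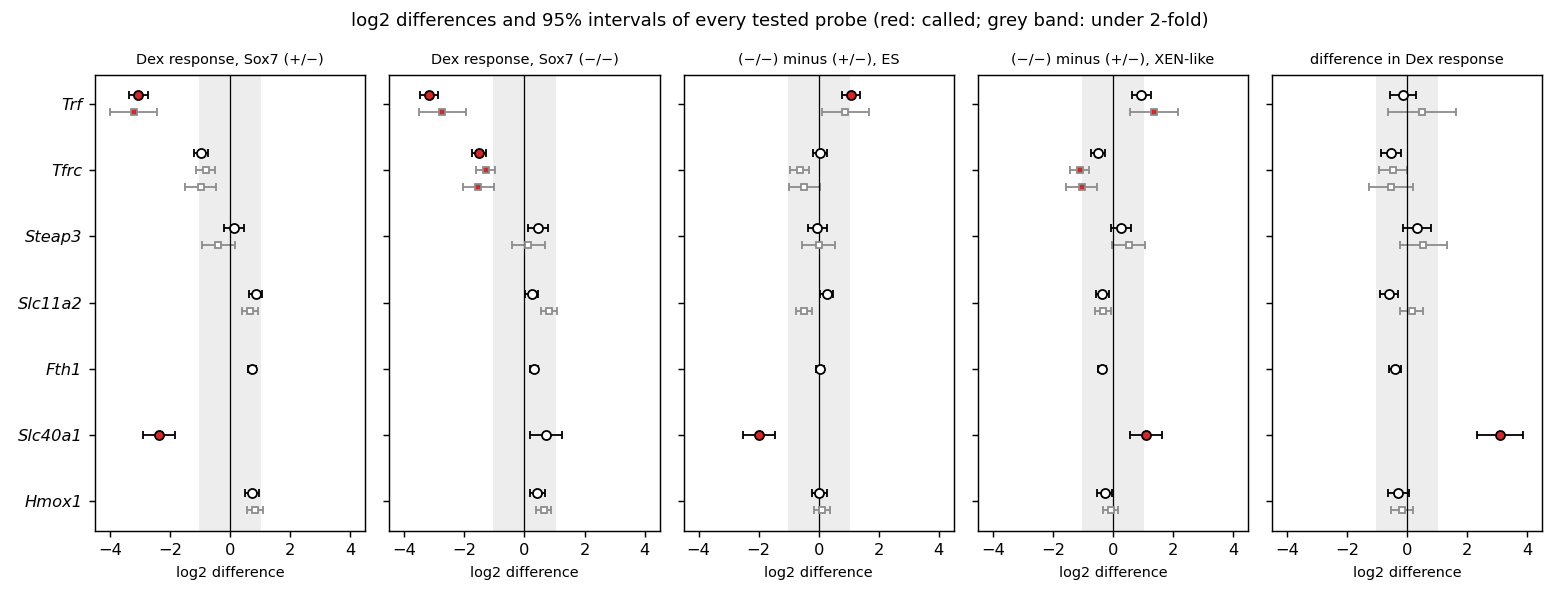
Difference on the log2 scale with its 95% interval for each tested probe of the 7 genes in 5 comparisons; circles are the brightest probe, grey squares the other probes, red marks calls and the grey band is under 2-fold. *Slc40a1* was the gene whose Dex response differed between genotypes by a call, at 3.09, and the probes of *Slc11a2* lay on opposite sides of 0 in ES cells.

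*Fth1* encodes the heavy chain of ferritin, which oxidises and stores iron. Its signal was 12270, 12440 and 12380 in *Sox7* (+/−) ES cells and 19800, 20550 and 20640 in *Sox7* (+/−) XEN-like cells. In the null cells it was 12370, 13720 and 12180 before and 15750, 16180 and 15430 after Dex. Both XEN-like groups lay above both ES groups, and the heterozygous XEN-like arrays lay above the null ones. The rise was 1.64-fold in *Sox7* (+/−) cells (log2 0.72, SE 0.06, adjusted p 4.19e-06) and 1.24-fold in *Sox7* (−/−) cells (log2 0.31, adjusted p 0.00151), with a difference between them of −0.41 (adjusted p 0.00813). In XEN-like cells *Fth1* was 1.29-fold lower without *Sox7* (log2 −0.36, adjusted p 0.00194), and on the deposited table this was 0.09 and the difference between the responses 0.05. The rise itself was 0.24 and 0.23 in the 2 genotypes with spike-in scaling (adjusted p 0.118 and 0.125) and 0.23 and 0.29 on the deposited table (adjusted p 0.273 and 0.164), so it passed the test in neither genotype there.

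*Slc40a1* encodes ferroportin, the iron exporter. It gave 197, 189 and 201 in *Sox7* (+/−) ES cells and 48.1, 48.8 and 23.6 in *Sox7* (+/−) XEN-like cells. It gave 48.6, 52.7 and 46.7 in *Sox7* (−/−) ES cells and 85.0, 91.5 and 69.7 in *Sox7* (−/−) XEN-like cells. With Dex, every *Sox7* (+/−) array fell below its ES group and every *Sox7* (−/−) array rose above its own. The order of the groups was *Sox7* (+/−) ES, *Sox7* (−/−) XEN-like, *Sox7* (−/−) ES and *Sox7* (+/−) XEN-like cells, of which only the last 2 overlapped. *Slc40a1* fell 5.13-fold in *Sox7* (+/−) cells (log2 −2.36, SE 0.24, adjusted p 1.2e-05) and was 1.66-fold higher after Dex in *Sox7* (−/−) cells (log2 0.73, adjusted p 0.0214), under the 2-fold threshold. With normexp the fall was −1.72, and with spike-in scaling the second value was 0.65 (adjusted p 0.0954). The difference between the responses was 3.09 on the log2 scale (SE 0.34, adjusted p 0.000131), and *Slc40a1* was the 1 member called there, against 6.64% of all tested probes called higher and 3.16% lower. On all alternatives run, it lay between 2.28 and 3.49. It takes in the comparison of ES cells, in which slide and genotype cannot be told apart.

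The 2 genotypes differed in *Slc40a1* already before Dex. In ES cells it was 3.97-fold lower without *Sox7* (log2 −1.99, SE 0.24, adjusted p 0.00014), and *Slc40a1* and *Trf* were the members called there, 1 lower and 1 higher, against 6.67% and 1.94% of all tested probes. In XEN-like cells it was 2.14-fold higher without *Sox7* (log2 1.10, adjusted p 0.00653), the 1 member called, where 3.87% of all tested probes were called higher and 3.64% lower. This last call rests on replicate 3 of the *Sox7* (+/−) XEN-like cells, at 23.6, since without that array the difference was 0.75 on the log2 scale (adjusted p 0.000805), under 2-fold, and with normexp background correction it was 0.65. With only the 6 XEN-like arrays fitted, the adjusted p was 0.0595. *Slc40a1* is read by 1 probe, so no second probe bears on these values.

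With Dex, the visceral endoderm genes *Cubn* and *Amn* moved in the directions of *Slc40a1* in each genotype, which most others of the same marker list did not. They were highest in *Sox7* (−/−) XEN-like cells, whereas *Slc40a1* was highest in *Sox7* (+/−) ES cells. *Cubn* and *Amn*, which encode the 2 parts of the cubam receptor for maternal proteins, among them transferrin, had means of 4377 ± 203 and 2183 ± 118 (SD, n = 3) in *Sox7* (+/−) ES cells and 1299 ± 620 and 517 ± 77.2 in *Sox7* (+/−) XEN-like cells. In the null cells they went from 2061 ± 428 and 1628 ± 102 to 7171 ± 348 and 4690 ± 396. The differences between the responses were 3.67 for *Cubn* (adjusted p 7.89e-05) and 3.61 for *Amn* (adjusted p 3.18e-07). Against the fall of *Slc40a1* in *Sox7* (+/−) cells, *Ttr*, *Rbp4*, *Ihh* and *Dpp4* were called higher there, with means of 34.0, 68.5, 521 and 105 before Dex and 206, 726, 3456 and 498 after, and *Epcam* fell in both genotypes. *Apoa4* had means of 6.0 before and 37.0 after Dex in *Sox7* (−/−) cells. In *Sox7* (+/−) cells its means were 5.67 and 2.85, near background, with 1 ES array and no XEN-like array detected. Of the 14 visceral endoderm markers listed, 12 were tested, and 10 of these were called higher in the difference between the responses, beside the 6.64% of all tested probes, 7 higher in XEN-like cells without *Sox7*, beside 3.87%, and 4 lower in ES cells without *Sox7*, beside 6.67%. The summed signal of the list was 28490 to 29830 in *Sox7* (+/−) ES cells, 20970 to 24360 in *Sox7* (+/−) XEN-like cells, 29060 to 32540 in *Sox7* (−/−) ES cells and 46360 to 52660 in *Sox7* (−/−) XEN-like cells, and the defining markers *Afp* and *Apoa1* were detected on no array. The part of such cells in the values of *Slc40a1* was not tested, and a different share of cells and a different amount of mRNA per cell cannot be told apart in these samples.

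**Figure D3:**
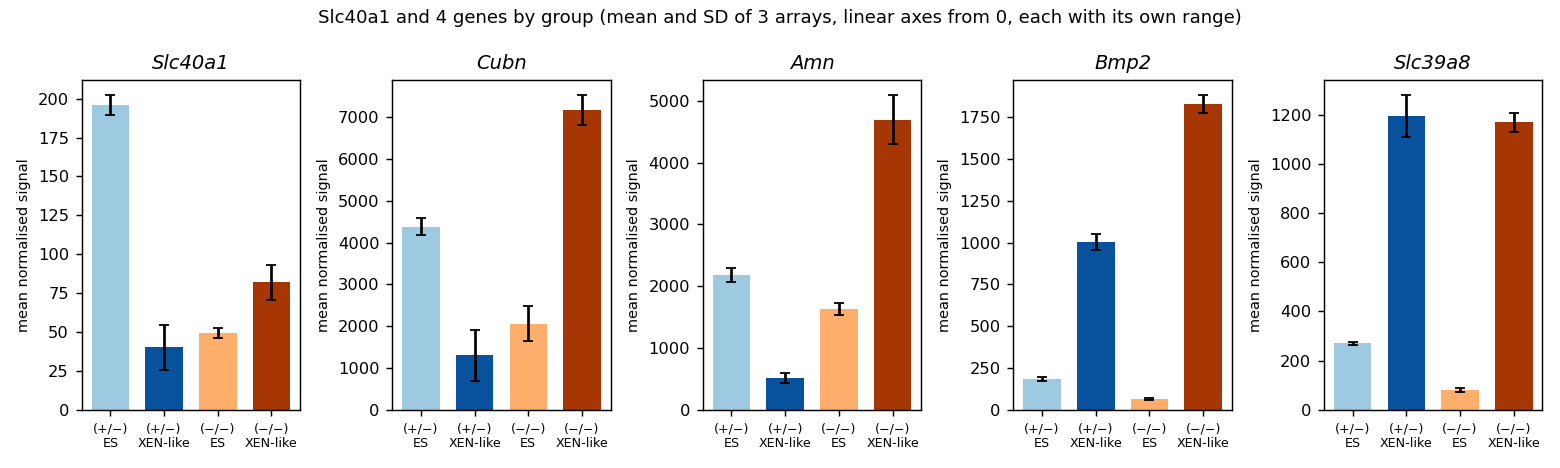
Mean normalised signal with SD of 3 arrays for *Slc40a1*, the cubam genes *Cubn* and *Amn*, *Bmp2* and *Slc39a8* in the 4 groups, on linear axes from 0 that differ between panels. *Slc40a1*, *Cubn* and *Amn* fell with Dex in *Sox7* (+/−) cells and were higher after Dex in *Sox7* (−/−) cells, the change of *Slc40a1* there being under 2-fold, whereas *Bmp2* and *Slc39a8* rose in both.

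Macrophages and erythroid cells, which handle most iron in the body, were looked for by their markers. Of 10 erythroid markers, 6 were detected on no array and 2 were tested, and their summed signal lay between 85.0 and 122 on all 12 arrays. Of 7 macrophage markers, *Ptprc* and *Lyz2* were detected on no array and 5 were tested. With Dex, 1 of these was called higher in *Sox7* (+/−) cells and 3 in *Sox7* (−/−) cells, beside 10.9% and 14.5% of all tested probes. *Cd68*, a lysosomal protein gene, went from 262 ± 7.31 to 193 ± 62.0 (SD, n = 3) in *Sox7* (+/−) cells and from 175 ± 3.38 to 551 ± 15.4 in *Sox7* (−/−) cells, with a difference between the responses of 2.15 (adjusted p 0.000399), the same directions as *Slc40a1*. *Emr1*, which encodes F4/80, rose from 13.6 ± 2.14 to 78.3 ± 8.47 in *Sox7* (+/−) cells and by at least 6.22-fold in *Sox7* (−/−) cells. The summed signals of the list were 1404 to 1741, 1925 to 3009, 1056 to 1112 and 1599 to 1680 in *Sox7* (+/−) ES, *Sox7* (+/−) XEN-like, *Sox7* (−/−) ES and *Sox7* (−/−) XEN-like cells, and their part in the values of *Slc40a1* was not tested.

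*Hmox1* encodes the inducible heme oxygenase, a known target of Nrf2 and of the heme-sensing repressor *Bach1*. Its signal was 934, 1004 and 868 in *Sox7* (+/−) ES cells and 1653, 1718 and 1292 in *Sox7* (+/−) XEN-like cells. It was 929, 1000 and 912 in *Sox7* (−/−) ES cells and 1186, 1339 and 1291 in *Sox7* (−/−) XEN-like cells. All XEN-like arrays lay above all ES arrays. The rise was 1.65-fold in *Sox7* (+/−) cells (log2 0.72, SE 0.11, adjusted p 0.00025) and 1.34-fold in *Sox7* (−/−) cells (log2 0.42, adjusted p 0.00667), and the second probe gave 0.82 and 0.64 (adjusted p 0.000126 and 0.000615). The difference between the responses was −0.30, with a 95% interval from −0.65 to 0.05 (adjusted p 0.188), and in ES cells the genotypes differed by 0.02 (95% interval −0.23 to 0.27, adjusted p 0.902). The direction of these last 2 values turns with the scaling of the arrays. With spike-in scaling the rises were 0.24 and 0.35 (adjusted p 0.288 and 0.134) and on the deposited table they were 0.24 and 0.38 (adjusted p 0.291 and 0.0798).

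The ferroxidases *Cp* and *Heph* and the heme scavenger *Hpx* were near the limit of the arrays. The dimmest detected signal was between 5.81 and 12.3 on the 12 arrays. The 3 probes of *Heph* lay between 1.49 and 12.3 and the 1 probe of *Hpx* between 1.33 and 6.58, and none was detected on any array. *Hpx* was 5.05, 6.58 and 6.24 in *Sox7* (+/−) XEN-like cells and at most 3.89 on the other 9 arrays, and these values are bounds and not levels. *Cp*, read by 2 probes, was detected on 1 array, replicate 3 of the *Sox7* (+/−) ES cells, where 1 probe gave 71.4, while it gave 1.49 to 2.84 on the other 11 arrays. On that same array the other *Cp* probe gave 3.05.

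**Figure D4:**
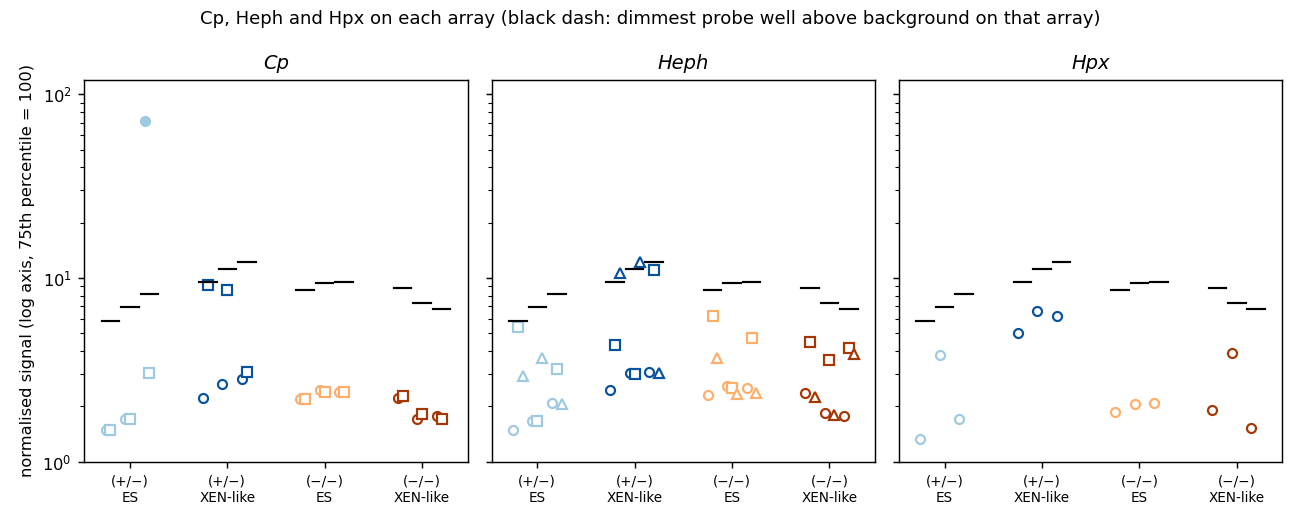
Normalised signal (log axis, 75th percentile = 100) of the probes of *Cp* (2), *Heph* (3) and *Hpx* (1) on each array of the 4 groups; marker shapes are probes, open markers were not detected, and each black dash is the dimmest detected probe of that array. The 1 filled marker is a *Cp* probe at 71.4 on replicate 3 of the *Sox7* (+/−) ES cells.

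Other genes of iron and heme handling were taken from a list of 82, of which 80 were on the array and 68 were tested. With Dex, 14 were called higher and 9 lower in *Sox7* (+/−) cells, where 10.9% and 14.0% of all tested probes were. In *Sox7* (−/−) cells 15 were called higher and 8 lower, where 14.5% and 14.3% of all tested probes were. The medians were 0.16 and 0.14 on the log2 scale beside 0.15 and 0.07 over all tested probes. Without *Sox7*, 6 were called higher and 1 lower in XEN-like cells, beside 3.87% and 3.64% of all tested probes. In ES cells 0 were called higher and 5 lower, beside 1.94% and 6.67%. In ES cells 23 of the 68 were higher and 12 lower by the adjusted p of limma at any size, as 28.2% and 16.9% of all tested probes were. In the difference between the responses 7 were called higher and 0 lower, beside 6.64% and 3.16% of all tested probes. At any size 15 were higher and 10 lower, which 12.4% and 14.8% of all tested probes were.

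Among the genes of uptake, 11 were tested, and 4 rose and 4 fell with Dex in *Sox7* (+/−) cells, beside 10.9% and 14.0% of all tested probes. In *Sox7* (−/−) cells 5 rose and 4 fell, beside 14.5% and 14.3%. *Slc39a8*, which encodes the importer ZIP8, rose from 271 ± 5.68 to 1193 ± 85.3 (SD, n = 3) in *Sox7* (+/−) cells (log2 2.14, adjusted p 1.19e-08) and from 78.7 ± 8.0 to 1170 ± 38.5 in *Sox7* (−/−) cells (log2 3.90, adjusted p 1.49e-10). It was 3.45-fold lower in ES cells without *Sox7* (log2 −1.79, adjusted p 2.73e-07), and the XEN-like groups overlapped. The STEAP family reductase genes *Steap1* and *Steap2* fell, *Steap1* by 2.85 and 3.59 on the log2 scale (adjusted p 5.63e-07 and 7.78e-08) and *Steap2* by at least 8.64-fold in *Sox7* (−/−) cells, whereas *Steap3* was not called in either genotype. *Tfr2*, which encodes the second transferrin receptor, was detected on no XEN-like array and fell by at least 1.68-fold in *Sox7* (+/−) cells (adjusted p 3.74e-05). *Cybrd1*, which encodes a ferric reductase, was 38.8 ± 1.44 in *Sox7* (−/−) XEN-like cells, detected on all 3 arrays, and 13.1 ± 1.73 in *Sox7* (+/−) XEN-like cells, detected on 1, and was called higher without *Sox7* (log2 1.58, adjusted p 0.00136).

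Of the genes of iron storage and sensing, 8 were tested and 2, *Epas1* and *Aco1*, rose in both genotypes. Of all tested probes, 10.9% rose by a call in *Sox7* (+/−) cells and 14.5% in *Sox7* (−/−) cells. *Epas1*, which encodes the hypoxia-inducible factor HIF-2α, a known activator of *Slc11a2* and *Slc40a1* in the gut, rose from 1534 ± 95.3 to 31960 ± 6121 (SD, n = 3) in *Sox7* (+/−) cells (log2 4.36, adjusted p 1.57e-09) and from 763 ± 50.9 to 17940 ± 692 in *Sox7* (−/−) cells (log2 4.56, adjusted p 8.28e-10). *Aco1*, which encodes the iron regulatory protein IRP1, rose by 1.25 and 1.18 on the log2 scale (adjusted p 2.23e-05 and 2.83e-05).

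Of the hepcidin axis, whose hormone closes ferroportin, 4 of 8 genes were tested, and 3 of these were called higher in the difference between the responses, where 6.64% of all tested probes were. The hepcidin genes themselves, *Hamp* and *Hamp2*, were detected on no array and were not tested. *Bmp2*, which encodes an inducer of hepcidin, rose from 183 ± 9.71 to 1005 ± 48.2 (SD, n = 3) in *Sox7* (+/−) cells (log2 2.46, adjusted p 3.44e-09) and from 64.2 ± 6.35 to 1828 ± 52.7 in *Sox7* (−/−) cells (log2 4.84, adjusted p 3.83e-11). *Bmp6*, another inducer, fell from 134 ± 12.8 to 28.8 ± 7.66 in *Sox7* (+/−) cells (log2 −2.25, adjusted p 1.52e-06) and was 3.45-fold higher in XEN-like cells without *Sox7* (log2 1.79, adjusted p 5.34e-05). *Fam132b*, which encodes erythroferrone, was 20.0 ± 1.31 in *Sox7* (+/−) ES cells and undetected after Dex, a fall of at least 1.82-fold, and was 10.4 ± 0.94 in *Sox7* (−/−) ES cells, detected on 1 of 3 arrays, and 10.8 ± 1.02 in *Sox7* (−/−) XEN-like cells, detected on all 3.

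**Figure D5:**
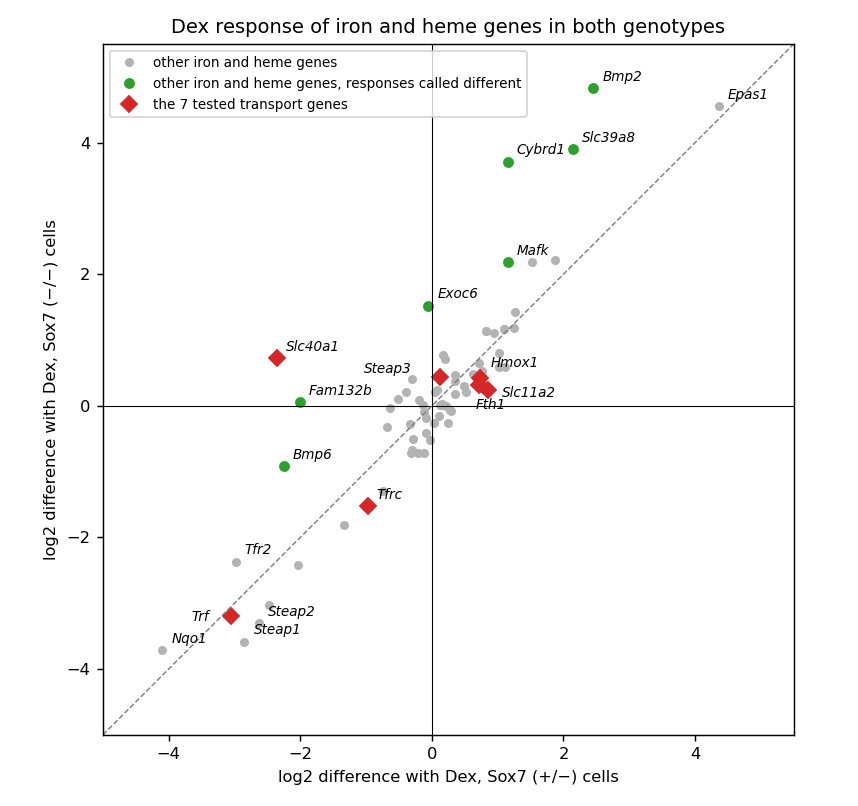
Difference with Dex on the log2 scale in *Sox7* (+/−) cells (horizontal) and *Sox7* (−/−) cells (vertical) for the 7 tested transport genes (red diamonds) and 68 other iron and heme genes, green where the 2 responses were called different; the dashed line marks equal responses. *Slc40a1* lies at −2.36 and 0.73, *Trf* at −3.06 and −3.19, and the 7 green genes lie above the line.

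Of heme synthesis, 13 genes were tested, and 3 rose and 0 fell by a call in *Sox7* (+/−) cells, with 4 and 0 in *Sox7* (−/−) cells. Of all tested probes, 10.9% rose and 14.0% fell by a call in *Sox7* (+/−) cells and 14.5% and 14.3% in *Sox7* (−/−) cells. The median was 0.48 and 0.38 on the log2 scale, beside 0.15 and 0.07 over all tested probes. *Cpox*, which encodes coproporphyrinogen oxidase, rose by 1.87 and 2.22 (adjusted p 2.16e-08 and 4.78e-09), and *Abcb10*, which encodes a mitochondrial transporter, by 1.10 and 1.17 (adjusted p 2.15e-07 and 1.08e-07). In the 3 remaining comparisons 0 of the 13 were called, with 1, 4 and 3 at an adjusted p under 0.05 at any size in limma, in XEN-like cells, in ES cells and in the difference between the responses. Of 11 genes of heme handling, 0 were called higher and 1 lower in *Sox7* (+/−) cells and 1 higher and 2 lower in *Sox7* (−/−) cells, beside the shares given above. *Lrp1*, which encodes the receptor of the heme-hemopexin complex, fell by 2.04 and 2.42 (adjusted p 2.57e-06 and 5.33e-07), and *Hebp2*, which encodes a heme-binding protein, was 2.90-fold lower in XEN-like cells without *Sox7* (log2 −1.54, adjusted p 2.24e-06). Before Dex *Hebp2* was already lower without *Sox7*, with 69.6 ± 5.29 (SD, n = 3) in *Sox7* (+/−) ES cells and 35.2 ± 3.36 in *Sox7* (−/−) ES cells, a difference not called.

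Of the 10 Nrf2 and *Bach1* genes, 2 rose and 2 fell in each genotype, with *Keap1* and *Mafk* higher and *Nqo1* and *Srxn1* lower. Of all tested probes, 10.9% rose and 14.0% fell by a call in *Sox7* (+/−) cells and 14.5% and 14.3% in *Sox7* (−/−) cells. *Nqo1*, a target of Nrf2 as *Hmox1* is, fell from 48.0 ± 2.19 in *Sox7* (+/−) ES cells to below background, by at least 4.38-fold (adjusted p 4.66e-06), and from 52.4 ± 2.40 in *Sox7* (−/−) ES cells to between 2.17 and 8.11 with 1 of 3 arrays detected (adjusted p 7.94e-06). *Mafk*, which encodes a partner of both factors, rose by 1.16 and 2.18 (adjusted p 1.32e-05 and 8.43e-08) and was 2.10-fold lower in ES cells without *Sox7* (log2 −1.07, adjusted p 8.7e-05).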

How the data were processed

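RNA of 4 groups, 3 arrays each, was labelled with Cy3 and hybridised by the authors to Agilent SurePrint G3 mouse arrays. The authors deposited, per the file headers, the intensity values of each array from Agilent Feature Extraction 10.7.3.1, whose processed signal is background-subtracted within the array and not scaled between arrays, and a table of intensity values, which lay within 0.498% of the mean spot signal and so is neither. The aligner of the probes to mm9 is not given in the sources used here.

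From the deposited processed signal of 59305 spots, log2 values were computed, set relative to the 75th percentile of each array (251.8 to 413.8 intensity units) and averaged over spots of 1 probe. Between 139 and 190 flagged spots per array were left out, 0 were saturated, and 41.7% to 52.3% were well above background, so the number of arrays and the signal over background limit the precision. Probes were kept if every array of some group had them well above background, and the 25938 kept were fitted by limma 3.58.1 (R 4.3.3) with a mean for each group and 5 comparisons: Dex in each genotype, the genotypes in ES and in XEN-like cells, and the difference between the Dex responses. The members and the lists of other genes were chosen with earlier results of these data known. Members were named by rule, all 10, and of the other iron and heme genes in each comparison up to 3 called risers and 3 called fallers, by size, whose groups did not overlap. Genes named beside these (*Mafk*, *Aco1*, *Bmp6*, *Cpox*, *Abcb10*, *Lrp1*, *Cybrd1*, *Keap1*, *Srxn1*, *Cubn*, *Amn*, *Ttr*, *Rbp4*, *Ihh*, *Dpp4*, *Epcam*, *Klf4*, *Cd68* and *Emr1*) were partly chosen after their values were seen, and a few results of the other genes are not reported here. "At least" folds set the brighter group against the higher of the dim probe's own signal and the dimmest signal well above background on each array. Sequences are those of the probes in the array files. The fit was tested on simulated data.

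Replicates correlated at r 0.982 to 0.996 over probes. Across groups, same-numbered arrays had deviations from the group means that correlated at −0.051 to 0.13, and the numbers were therefore not taken to pair arrays. Alternatives were normexp background correction, quantile normalisation, scaling by 8 spike-in probes or by the median of 19415 probes detected on all 12 arrays, the deposited table, no filter or a stricter filter on dim probes, an intensity trend, a fit of only the compared arrays, a slide block, a replicate block, every probe counted and each array left out, and, chosen after seeing the data, each slide by itself.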

Additional observations from a re-analysis of the deposited data

Results flagged for a closer look

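The Dex response differed between *Sox7* (−/−) and *Sox7* (+/−) cells, by the test of the difference in limma, for *Slc40a1* and for the 3 other iron and heme genes with the largest such differences. Each difference takes in the comparison of ES cells, in which slide and genotype cannot be told apart. The difference was 3.09 on the log2 scale for *Slc40a1* (adjusted p 0.000131), with the gene falling in every *Sox7* (+/−) array and higher in every *Sox7* (−/−) array after Dex. It was 2.56 for *Cybrd1* (adjusted p 7e-04), whose ES signals were well above background on 1 of 6 arrays. It was 2.38 for *Bmp2* (adjusted p 7.27e-07), which rose in both genotypes and started 2.86-fold lower in *Sox7* (−/−) ES cells. It was 2.07 for *Fam132b* (adjusted p 0.000118), which no *Sox7* (+/−) XEN-like array showed well above background, so this value rests on signals near background.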

How the results depend on the processing

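Of 639 alternative values for 35 results (7 genes in 5 comparisons), 590 kept the direction and the side of the threshold, 5 lost the call, 12 gained one and 32 turned in direction; the cause was not tested. The falls of *Trf* in both genotypes, of *Slc40a1* in *Sox7* (+/−) cells and of *Tfrc* in *Sox7* (−/−) cells, the lower *Slc40a1* in *Sox7* (−/−) ES cells and the difference in its response kept their calls under every alternative that tested them, although with normexp the falls of *Trf* were −1.69 and −2.46 and the difference in its response −0.77. The count of members called higher in XEN-like cells, 1, was 0 with normexp and with only the arrays compared, and 2 with quantile normalisation, spike-in scaling, the slide block, every probe counted and within slide 2, and between 1 and 2 with 1 array left out, the 2 coming without replicate 1 of the *Sox7* (−/−) XEN-like cells. Without replicate 3 of the *Sox7* (+/−) XEN-like cells *Slc40a1* lost that call and *Trf* gained it. The count higher in ES cells, 1, was 0 with normexp, with spike-in scaling and with only probes above background on all 12 arrays. That filter leaves out *Trf* and gave 1 member lower with Dex, not 2, in each genotype. No filter added *Hpx*, 1 higher with Dex in *Sox7* (+/−) cells and 1 lower in *Sox7* (−/−) XEN-like cells, both from signals not above background. With every probe counted, 5 were lower with Dex in *Sox7* (−/−) cells and 2 lower in XEN-like cells. The replicate block changed no count of members, as with 2 lower and 0 higher in each Dex response.

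The values that turned lay between −0.36 and 0.27. In ES cells quantile normalisation gave −0.037 for *Tfrc*, 0.073 for *Steap3*, −0.16 for *Fth1* and −0.13 for *Hmox1*, spike-in scaling −0.098 for *Tfrc*, −0.11 for *Fth1* and −0.13 for *Hmox1*, scaling by the median −0.0065 for *Fth1* and −0.030 for *Hmox1*, the deposited values 0.0088 for *Steap3*, and the slide block −0.013 for *Tfrc* and 0.022 for *Steap3*. With 1 array left out, the values in ES cells ranged from −0.027 to 0.11 for *Tfrc*, from −0.20 to 0.042 for *Steap3*, from −0.033 to 0.072 for *Hmox1* and from −0.0099 to 0.076 for *Fth1*. *Steap3* with Dex in the heterozygous cells gave −0.36 by spike-in scaling, −0.27 on the deposited table and −0.038 to 0.25 with 1 array left out. The difference between the responses was 0.015 for *Trf* with quantile normalisation, 0.27 with spike-in scaling and −0.22 to 0.030 with 1 array left out, 0.10 for *Hmox1* with spike-in scaling, and on the deposited values 0.054 for *Fth1* and 0.14 for *Hmox1*. In XEN-like cells the deposited values gave 0.040 for *Slc11a2*, 0.090 for *Fth1* and 0.20 for *Hmox1*.

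Spike-in scaling moved the median of all tested probes from 0.15 to −0.33 with Dex in *Sox7* (+/−) cells, from 0.00 to 0.25 in XEN-like cells, from 0.10 to −0.06 in ES cells and from −0.09 to 0.31 in the difference between the responses, and the share of calls that were higher from 43.8% to 18.8%, 51.6% to 76.9%, 22.6% to 13.1% and 67.8% to 89.8%. The deposited table gave medians of −0.23, 0.34 and 0.24 and shares of 19.6%, 89.9% and 89.5% for the first, second and last of these. Scaling by the median moved the Dex medians to 0.04 and −0.05. Probes called in either direction, 6448, 7475, 1947, 2235 and 2542 with Dex in each genotype, in XEN-like cells, in ES cells and in the difference, were 3459, 4621, 709, 898 and 1383 with normexp, and 3148, 4117, 929, 854 and 1259 with only probes above background on all 12 arrays. In ES cells 1033 were called on the deposited table, and without a filter 5362 in the difference.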

Other observations

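One probe of *Cp* was well above background on 1 of 12 arrays, replicate 3 of the *Sox7* (+/−) ES cells, with a normalised signal of 71.4 against at most 2.84 on the other 11 arrays, and the other *Cp* probe gave 3.05 on that array.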
